A study of Mus musculus with 22 samples.

Results

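RUNX proteins are transcription factors that bind DNA as a pair with the partner CBFB, and the ETO proteins are corepressors that join them, or other factors, to histone deacetylase complexes. RUNX1 is needed for blood stem cells to form and for myeloid, lymphoid and megakaryocyte maturation, and translocations that fuse it to RUNX1T1 (ETO) or disrupt CBFB drive acute myeloid leukaemia. RUNX2 is best known from bone and RUNX3 from T cells and NK cells, while CBFA2T3 (ETO2) works in erythroid and megakaryocytic cells within the complex of TAL1, LMO2 and GATA1. The 7 genes described here were chosen by name as this group: the factors Runx1, Runx2 and Runx3, their partner Cbfb, and the corepressor genes Cbfa2t3, Cbfa2t2 and Runx1t1, out of 47311 genes in the deposited files. All 7 were found, with 6 to 13 annotated transcripts each. Runx1 spans chr16:92601466-92826149 and Runx2 chr17:44495987-44814797, both on the minus strand, and Runx3 spans chr4:135120652-135177990 on the plus strand (mm10). Runx1, Runx2, Runx3 and Cbfa2t3 each overlap an antisense gene (Gm26626, Runx2os1 and others, Gm16224 and Gm10612), and where exons of both strands coincide the reads cannot be told apart.

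The 22 RNA-seq libraries came from bone marrow of C57BL/6 mice that all carried Arid1a f/f, in which loxP sites flank exon 9 of Arid1a, a subunit of the SWI/SNF chromatin remodelling complex. KO mice also carried Mx1-Cre, which an interferon response switches on and which is not restricted to blood cells, and WT mice were littermates of the same sex without Cre. Both genotypes received poly(I:C) at 8 to 14 weeks of age, and cells were sorted 4 weeks later. Long-term stem cells (LT-HSC) gave 2 libraries of each genotype. Common myeloid progenitors (CMP), granulocyte-monocyte progenitors (GMP) and megakaryocyte-erythroid progenitors (MEP) gave 3 of each genotype, with the same 6 sample numbers, read as mice, in all 3 populations. The labels do not say how cells were pooled or extracted per mouse, so p-values measure the spread between these samples. LT-HSC libraries were made with another cDNA kit than the precursors, so for them kit and population cannot be told apart, and their levels are set beside those of the precursors without a test.

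Library totals ran from 40804031 to 65930737 estimated counts. The LT-HSC WT library S245 stood apart, with 27191 genes at 10 or more counts against 18504 to 22407 in the other LT-HSC libraries and 14872 to 17371 in the precursors, so LT-HSC values are also given without it where a result turns on it. Summed stem cell markers reached 665.67 to 1232 TPM in LT-HSC and at most 127.59 TPM in the precursors. TPM is a level per unit of transcript length, scaled to the same total in every library. Within LT-HSC these markers lay at 923 to 1232 TPM in WT and 665.67 to 807.5 TPM in KO. The same libraries held 3053 to 3580 TPM of erythroid and 1002 to 3758 TPM of granulocyte markers. Megakaryocyte markers lay at 222 to 265 TPM in WT and 387 to 426 TPM in KO LT-HSC. Arid1a, counted over all its exons and so not a measure of exon 9 alone, was lower in KO by 0.22 on the log2 scale in CMP (FDR = 0.0284), and its difference was -0.40 in GMP (FDR = 0.0246) and -0.14 in MEP (FDR = 0.0836). In LT-HSC the difference was -1.14, with an FDR of 0.42. FDR here is the Benjamini-Hochberg adjusted p of edgeR's quasi-likelihood test over all genes tested, and a gene was called below 0.1.

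The DNA letters that RUNX proteins read occur as a pair in front of, or just after, the distal start of all 3 RUNX genes, and these stretches are shown because they carry that sequence. The windows searched were RefSeq promoter windows of 300 bases, 250 before and 50 after a start, on GRCm38.p6. Capitals mark CAACCACAGAACCACAAG, the longest run of letters (18) that the distal windows of Runx1, Runx2 and Runx3 share, which holds the RUNX core ACCACA at 2 places.
Runx1 distal, chr16:92826025-92826054, minus strand: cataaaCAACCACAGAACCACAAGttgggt
Runx2 distal, chr17:44814583-44814612, minus strand: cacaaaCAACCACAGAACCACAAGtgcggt
Runx3 distal, chr4:135120503-135120532, plus strand: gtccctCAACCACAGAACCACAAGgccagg

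The shared run lay at positions 27 to 44 after the Runx1 start, 22 to 39 after the Runx2 start and from -136 to -119 before the Runx3 start. The printed Runx1 and Runx2 stretches were identical at 27 of 30 bases, Runx1 and Runx3 at 19 and Runx2 and Runx3 at 21. The capitals are identical because the stretches were cut around the shared run, so only the lower-case flanks could differ. In the search that follows, the matches of the Runx1, Runx2 and Runx3 windows are fixed by the same choice. Searched on both strands (reverse complement CTTGTGGTTCTGTGGTTG), the run occurred in 4 of 32851 windows (0.0122%), and the fourth, of Gm16225, overlaps the Runx3 window on the opposite strand. The shorter core ACCACA or TGTGGT, which is contained in the run, occurred in 16.8% of windows and was absent from the windows of the proximal Runx1 and Runx3 starts, Cbfb, Cbfa2t2 and both Cbfa2t3 starts. A match is a run of letters and no measurement of binding, and no window of Runx1t1 was in the reference used.

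Runx1 fell in KO CMP and KO GMP and its difference in MEP lay within the spread between libraries. In CMP its level was 69.5, 51.9 and 66.2 TPM in WT and 46.6, 46.5 and 44.3 TPM in KO. In GMP it was 48.7, 51.6 and 55.1 TPM in WT and 27.7, 26.5 and 27.2 TPM in KO. In both populations all KO libraries lay below all WT libraries, and the KO libraries were closer to each other than the WT libraries were. The log2 fold change was -0.60 ± 0.08 (SE) in CMP (FDR = 0.00103) and -0.64 ± 0.06 in GMP (FDR = 7.48e-05), and both calls held in 14 of 14 alternative analyses. On the TPM scale the GMP difference was larger (-0.91 by limma) and the CMP difference smaller (-0.43). Part of the GMP levels lay on Runx1-204, an incomplete annotation of 336 bases, at 9.70 to 15.6 TPM in WT and 2.59 to 4.23 TPM in KO. These WT values came from 55.4 to 95.3 estimated counts per library. The TPM levels and shares of Runx1 given here include this transcript. In MEP, where Runx1 was low, WT libraries held 16.5, 13.1 and 11.4 TPM and KO libraries 14.4, 13.3 and 12.8 TPM (log2 fold change 0.09 ± 0.09, FDR = 0.541). The bulk values do not tell fewer Runx1-expressing cells from less Runx1 RNA per cell, and this holds for every gene below.

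Runx3 moved in the opposite direction to Runx1 in CMP and GMP, and fell in MEP. In CMP it rose from 63.5, 51.9 and 62.2 TPM in WT to 78.2, 69.1 and 84.3 TPM in KO (log2 fold change 0.28 ± 0.08, FDR = 0.0449). In GMP it rose from 48.2, 44.3 and 46.5 TPM to 56.4, 49.7 and 56.6 TPM (0.38 ± 0.06, FDR = 0.00231). In MEP it fell from 31.1, 24.9 and 25.1 TPM to 14.2, 13.2 and 14.5 TPM, the largest drop of a RUNX gene in the 4 populations (-0.96 ± 0.08, FDR = 1.35e-04). WT and KO libraries did not overlap in any of the 3 populations. Without WT 305 or KO 308 the CMP call was lost (FDR = 0.121 and 0.119).

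Runx2 was at 31.8, 24.8 and 38.2 TPM in WT CMP and 27.0, 20.2 and 27.5 TPM in KO CMP. These TPM ranges overlap, while in the scaled counts that were tested every KO library lay below every WT library. The test called Runx2 lower (-0.50 ± 0.15, FDR = 0.0469). That call was lost without KO 301 (FDR = 0.107), KO 304 (0.108) or WT 309 (0.143) and with an offset for transcript length (0.104). It was also lost with limma (FDR = 0.266) and in 1 fit of the 18 precursor libraries (0.159). In GMP it was 24.4, 25.0 and 25.1 TPM in WT and 22.9, 18.8 and 21.4 TPM in KO, apart but close (-0.20 ± 0.06, FDR = 0.0466). The GMP call was lost without WT 309 (FDR = 0.104) and with the length offset (-0.11, FDR = 0.322). DESeq2 with that offset (FDR = 0.585) and 1 fit of the 18 precursor libraries (0.599) lost it too. Runx2 was lowest in MEP, at 1.83, 0.384 and 0.666 TPM in WT and 0.752, 0.689 and 1.21 TPM in KO (-0.26 ± 0.38, FDR = 0.695).

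**Figure D1:**
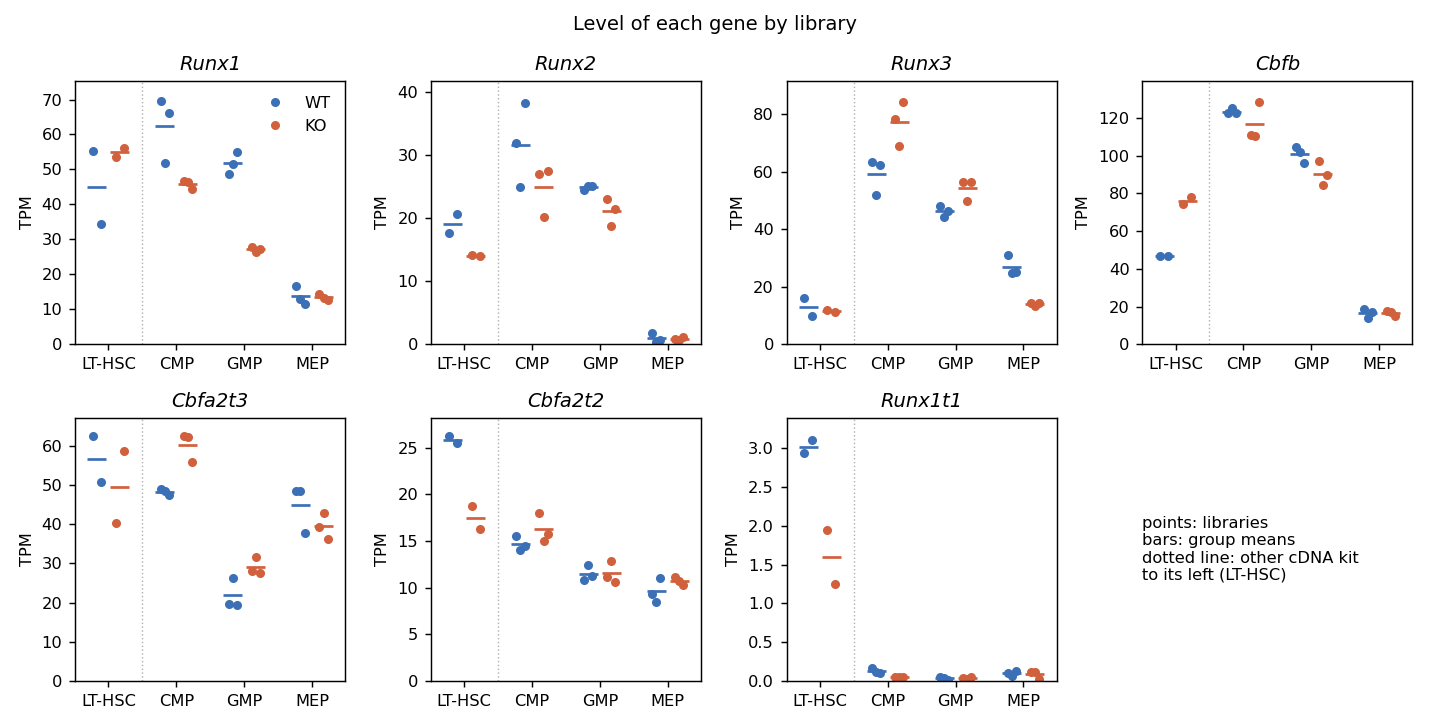
Level of each gene in every library, in TPM on a linear axis from 0, for the 4 populations (points are libraries, bars are group means, WT blue and KO orange). Runx1 in GMP lay between 48.7 and 55.1 TPM in WT and 26.5 and 27.7 TPM in KO, and Runx3 in MEP between 24.9 and 31.1 TPM in WT and 13.2 and 14.5 TPM in KO.

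The mixture of the 3 RUNX genes in their summed TPM therefore differed between genotypes. In WT CMP the means of Runx1 and Runx3 were 62.5 ± 9.33 and 59.2 ± 6.35 TPM (SD, n = 3), which do not differ beyond their spread, whereas in KO CMP Runx3 stood at 77.2 ± 7.67 and Runx1 at 45.8 ± 1.30 TPM. The share of Runx3 was 38.7 ± 1.51% in WT and 52.2 ± 1.65% in KO CMP, and 37.7 ± 1.77% and 53.0 ± 0.772% in GMP. In MEP the order went the other way. Runx3 held 65.1 ± 2.29% in WT and 49.3 ± 1.36% in KO, and Runx1 rose in share from 32.7 ± 1.74% to 47.6 ± 2.34% while its own level did not pass the test. The RUNX sum was 153 TPM in WT and 148 TPM in KO CMP, with overlapping libraries, while it was 123 and 102 TPM in GMP and 41.6 and 28.3 TPM in MEP, where the libraries did not overlap.

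**Figure D2:**
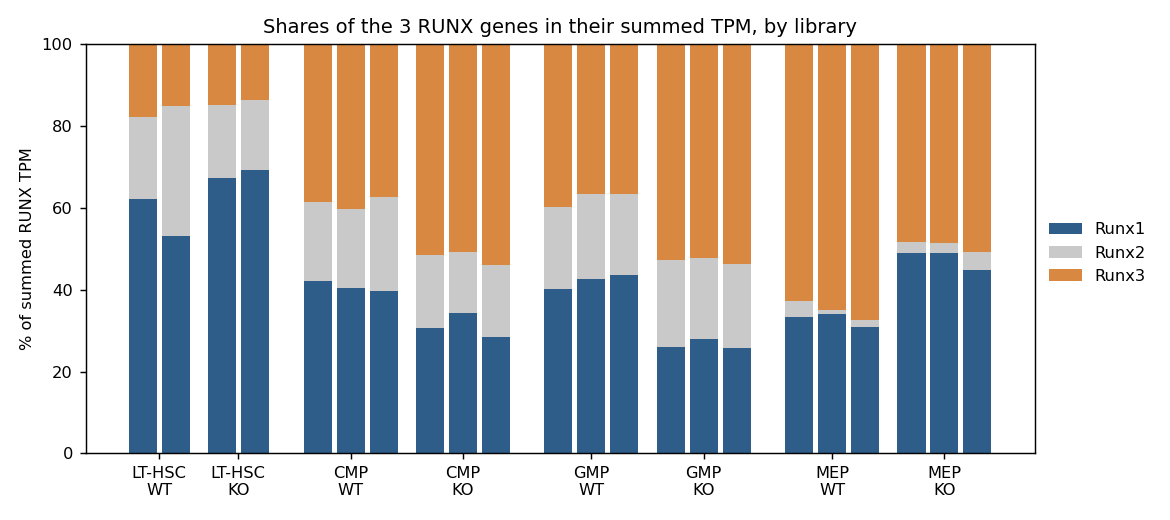
Percentage of the summed RUNX TPM held by Runx1, Runx2 and Runx3, one stacked bar for each library, ordered by population and genotype. In CMP and GMP the Runx3 part was larger in every KO than in every WT library, and in MEP it was smaller.

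Cbfb, the partner that all RUNX proteins share, was the most abundant of the 7 genes in CMP and GMP. It stood at 122.5 to 125.4 TPM in WT CMP, 96.1 to 104.7 TPM in WT GMP and 13.7 to 18.8 TPM in WT MEP. KO and WT overlapped in CMP, GMP and MEP, with log2 fold changes of -0.17 (FDR = 0.154), -0.00 (0.981) and -0.03 (0.877). In CMP the call turned on 1 library, since without KO 308 the value was -0.25 (FDR = 0.0241). The ratio of Cbfb to summed RUNX TPM was 0.398 in WT and 0.583 in KO MEP with no overlap, and 0.822 and 0.882 in GMP with overlap.

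Cbfa2t3, the ETO2 corepressor, moved as Runx3 did in CMP and GMP. It rose in CMP from 49.1, 48.5 and 47.3 TPM to 62.4, 62.3 and 55.9 TPM (log2 fold change 0.23 ± 0.06, FDR = 0.0240). It rose in GMP from 19.6, 26.4 and 19.5 TPM to 28.0, 31.6 and 27.7 TPM (0.54 ± 0.12, FDR = 0.00806). In both populations the libraries of the genotypes did not overlap, and the CMP call was lost without WT 309 (FDR = 0.105). In MEP the levels were 48.5, 48.5 and 37.8 TPM in WT and 39.3, 42.8 and 36.1 TPM in KO, which overlap. The MEP test gave -0.24 ± 0.08 (FDR = 0.0652), but the call held in only 6 of 14 alternatives and was lost without WT 300, WT 305, KO 301 or KO 308 (FDR = 0.119 to 0.205).

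Cbfa2t2, the broadly expressed ETO relative, did not pass the test in any population, with log2 fold changes of 0.03, 0.05 and 0.07 in CMP, GMP and MEP. Its level was between 8.45 and 18.1 TPM in the precursors and overlapped between genotypes in all 3. Runx1t1, the gene fused to RUNX1 in leukaemia, was at most 0.161 TPM in the precursors, which is 2 to 38 estimated counts in a library. In CMP it was 0.161, 0.111 and 0.0963 TPM in WT and 0.0477, 0.0557 and 0.0531 TPM in KO (-1.34 ± 0.35, FDR = 0.0308). This difference rests on 8.32 to 38 counts per library, and its call was lost without WT 300 (FDR = 0.132) or KO 301 (0.113) and with DESeq2 (0.103). It did not reach the count filter in GMP, and in MEP its difference was -0.29 (FDR = 0.741).

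**Figure D3:**
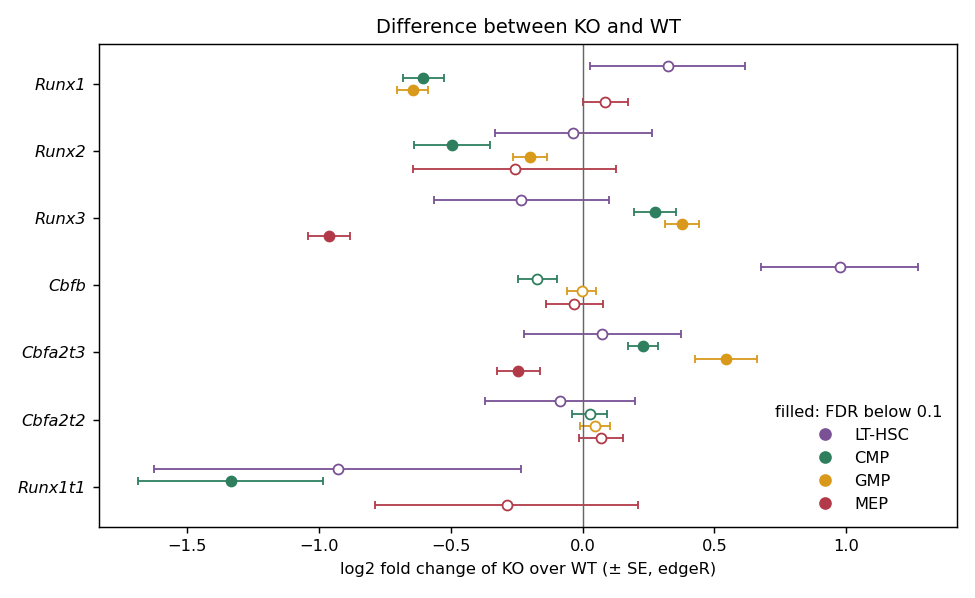
Log2 fold change of KO over WT for each gene in LT-HSC, CMP, GMP and MEP from edgeR, with bars of 1 standard error; filled points have an FDR below 0.1. Runx1 lies at -0.60 and -0.64 in CMP and GMP and at 0.09 in MEP, and Runx3 lies at 0.28, 0.38 and -0.96.

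Of the 7 genes, 5 were called between KO and WT in CMP, against 23.4% of all genes tested. In GMP 4 of the 6 tested were called, against 33.9%, and in MEP 2 of 7, against 29.4%. The test of the difference between populations used all 18 precursor libraries with a term for each mouse. The Runx1 effect in MEP exceeded that in CMP by 0.68 (FDR = 0.00155), and the effect in GMP was below that in MEP (-0.76, FDR = 3.09e-04). For Runx3 the effect in MEP less that in CMP was -1.25 (FDR = 1.65e-06), and that in GMP less that in MEP was 1.32 (FDR = 3.23e-07). Cbfa2t3 gave -0.47 (FDR = 0.0148) and 0.77 (FDR = 2.62e-04) in the same contrasts. These 3 of the 7 genes were called in each, against 12.3% and 24.9% of genes, and all 6 values held in 10 of 10 alternatives. Between GMP and CMP, 0 of 7 effects were called, against 19.7%, with 1 at an unadjusted p under 0.05, Cbfa2t3 (0.29, FDR = 0.101), which was called in 5 of 10 alternatives.

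In LT-HSC, 0 of the 7 genes were called by edgeR, against 0.0792% of genes (18 of 22733), with 1 at an unadjusted p under 0.05, and DESeq2 called none. On simulated LT-HSC counts the edgeR test recovered 7.5% of changes of 1 on the log2 scale, and 48.3% of its calls were false. In simulated CMP, GMP and MEP counts it recovered 91.5%, 86% and 84%. A change in LT-HSC may thus go undetected. Cbfb was 46.6 and 46.7 TPM in WT and 74.2 and 78.0 TPM in KO, a gap wider than the spread of either group (log2 fold change 0.98 ± 0.30, FDR = 0.68). Without WT S245 the value was 0.84 (FDR = 0.0555) and without WT S269 it was 1.12 (FDR = 5.96e-04), both assuming that the lone WT library varies like the KO libraries. Runx1 was 55.4 and 34.5 TPM in WT and 53.6 and 56.1 TPM in KO, with the WT libraries farther apart than the genotypes. Cbfa2t2 and Runx1t1 lay lower in TPM in both KO libraries, at 18.7 and 16.3 against 26.2 and 25.5 TPM and at 1.95 and 1.25 against 2.93 and 3.11 TPM, but their log2 fold changes were -0.09 and -0.93 and neither was called. Runx2, Runx3 and Cbfa2t3 had log2 fold changes of -0.04, -0.23 and 0.08. The median log2 fold change over all genes tested in LT-HSC was itself -0.16. Runx1t1 was above 1 TPM only in the 4 LT-HSC libraries, where Runx1 took 57.7% of the summed RUNX TPM in WT and Runx3 16.6%.

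Across WT precursors, MEP stood apart from CMP and GMP for the RUNX genes and Cbfb. Against CMP, MEP held less Runx2 (log2 fold change -4.92), less Cbfb (-2.61), less Runx1 (-1.89), less Runx3 (-0.75) and less Cbfa2t2 (-0.37). All 5 were called, against 68.8% of genes, and so a call in itself does not set them apart. The difference of Cbfa2t3 between MEP and CMP was not called (0.14, FDR = 0.126), but 7 of 10 alternatives called it higher in MEP. Its values ran from 0.12 to 0.24 over the alternatives. Cbfa2t3 was lower in GMP than in CMP (-0.93, FDR = 5.05e-07) and in MEP (-1.08, FDR = 2.94e-08). GMP and CMP were closer for the RUNX genes. Runx1 was lower in GMP (-0.23, FDR = 0.0332), a call lost with the length offset (-0.11, FDR = 0.482). Runx3 was lower in GMP by a small margin (-0.15, FDR = 0.0568), and Runx2 and Cbfb were not called. In all 5 of 7 were called between GMP and CMP, against 44.6%, and 7 of 7 between GMP and MEP, against 68.6%. Both counts include Runx1t1, which had only 2 to 11.8 estimated counts in a GMP library. Its call between GMP and MEP (-1.31, FDR = 0.0635) was lost without mouse 309 (-0.68, FDR = 0.381). The call of Cbfa2t2 between GMP and MEP (0.19, FDR = 0.0229) held in only 2 of 10 alternatives.

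The levels in WT thus ordered the members differently in each population. In CMP Cbfb led with 123 ± 1.64 TPM, followed by Runx1, Runx3 and Cbfa2t3, with Runx2 at 31.6 ± 6.68 and Cbfa2t2 at 14.7 ± 0.758 TPM. In MEP Cbfa2t3 led with 44.9 ± 6.17 TPM, followed by Runx3 at 27.0 ± 3.51 TPM, and Cbfb at 16.5 ± 2.55 and Runx1 at 13.7 ± 2.60 TPM, which overlapped. In LT-HSC the same genes stood at 56.5 TPM for Cbfa2t3, 46.6 TPM for Cbfb, 44.9 TPM for Runx1, 25.9 TPM for Cbfa2t2, 19.1 TPM for Runx2 and 12.9 TPM for Runx3.

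Runx1 has a distal and a proximal promoter, and its transcripts were grouped by their annotated starts on chromosome 16, minus strand (mm10). The distal group starts at 92825778 to 92826149, the proximal group at 92697325 to 92697328 and a separate downstream group at 92695495 to 92696125. Most estimated counts fell on the distal group. In CMP it held 183, 147 and 168 CPM (estimated counts scaled to the library total) in WT and 111, 112 and 117 in KO. In GMP it held 114, 107 and 119 in WT and 60.9, 70.5 and 61.1 in KO. The proximal group held 26.8, 22.3 and 33.1 in WT and 15.1, 18.7 and 17.5 in KO CMP. Both groups were lower in every KO than in every WT library of CMP and GMP.

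The distal group fell by 0.58 on the log2 scale in CMP (FDR = 0.00554), and its change in GMP was -0.74 (FDR = 8.94e-04). The proximal group changed by -0.70 (FDR = 0.0330) and -0.48 (FDR = 0.0153). The CMP call of the proximal group was lost without KO 301 (FDR = 0.122) or WT 309 (0.103). Among all groups tested, 12% were called in CMP, 19.4% in GMP, 16.7% in MEP and 0.00306% in LT-HSC. In MEP and LT-HSC no Runx1 group was called. The test of usage, whether one start changed apart from the gene, called no Runx1 group in any population, where 0.0188% to 0.498% of groups were called. On simulated counts that test recovered few changes, so a shift in usage may go undetected here. The distal share of Runx1 TPM was 83.8 ± 3.05% in WT and 87.4 ± 0.880% in KO CMP (exact two-sided permutation p = 0.1, the smallest that 3 against 3 can give). In GMP it was 75.5 ± 6.20% and 67.7 ± 2.50% (exact permutation p = 0.3), a difference of -7.78 percentage points that turned to 2.78 with starts joined only within 100 bp. In MEP it was 74.1 ± 6.44% and 80.2 ± 4.63% (exact permutation p = 0.3). In LT-HSC it was 57.3 ± 6.94% and 48.5 ± 1.74% (exact permutation p = 0.333, the smallest that 2 against 2 can give).

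Among single Runx1 transcripts, Runx1-201, the full-length transcript of the distal start, was called lower in CMP and GMP. It changed by -0.58 in CMP (FDR = 0.0210) and -0.75 in GMP (FDR = 0.00442), against 4.54% and 8.46% of transcripts called. Runx1-202, the full-length transcript of the proximal start, changed by -0.68 (FDR = 0.0857) and -0.50 (FDR = 0.0632). Runx1-204, an incomplete annotation of 336 bases on the distal start, changed by -1.68 in GMP (FDR = 0.0375). Counts on it are split with Runx1-201 by the estimation, and the distal share moved between -1.39 and 3.61 percentage points in CMP with how starts were grouped. In MEP and LT-HSC no Runx1 transcript was called, where 6.39% and 0% of all transcripts were. LT-HSC and the precursors, also made with different kits, split Runx1 TPM differently among transcripts. Runx1-203, the short transcript of the downstream start, held 32.9% to 47.6% in LT-HSC and 0% to 20.8% in the precursors, while Runx1-201 held 17.9% to 32.0% and 48.1% to 76.3%.

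**Figure D4:**
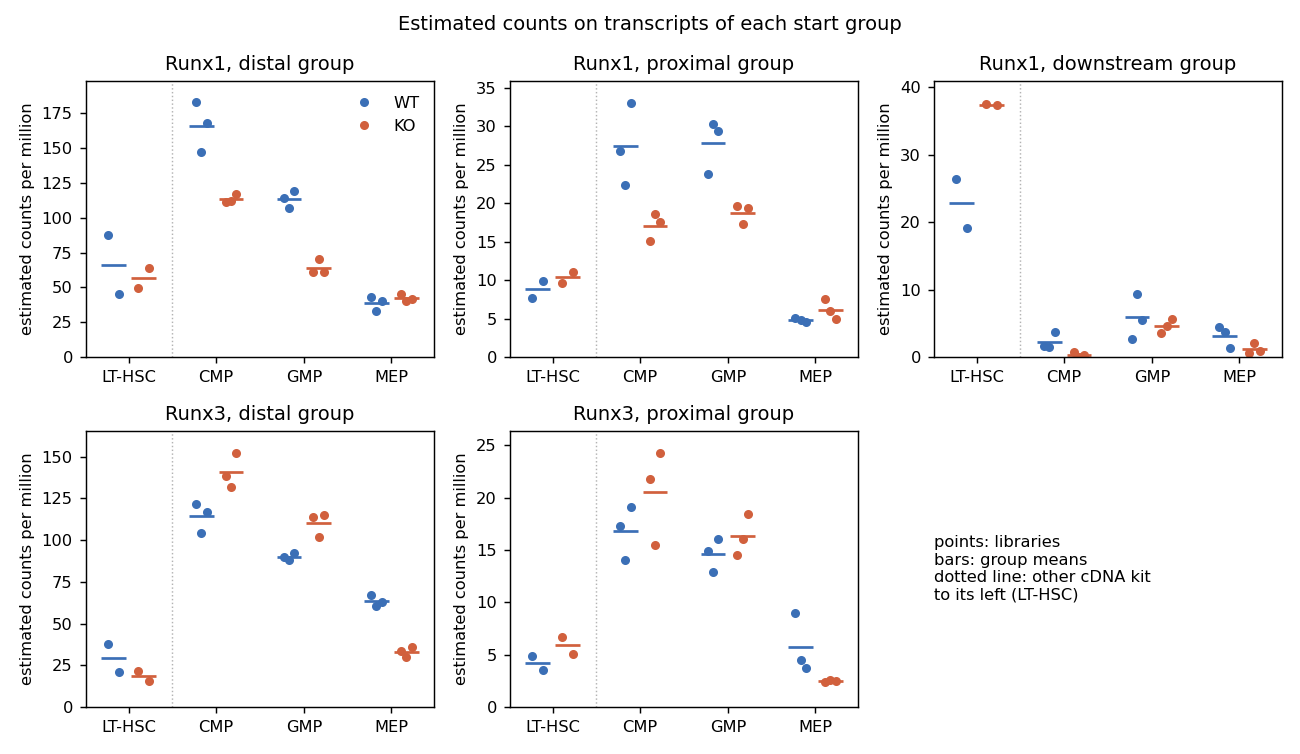
CPM on the start groups of Runx1 and Runx3 in every library, on linear axes from 0 (points are libraries, bars are group means, WT blue and KO orange). The distal Runx1 group lay at 107 to 119 in WT and 60.9 to 70.5 in KO GMP, and the distal Runx3 group at 60.4 to 67.1 in WT and 30.04 to 35.8 in KO MEP.

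Runx3, Cbfa2t3 and Runx2 also have several starts, and their groups were examined after the gene values had been seen. The distal Runx3 group, starting at 135120652 on chromosome 4, held 67.1, 60.4 and 62.7 CPM in WT MEP and 33.2, 30.04 and 35.8 in KO MEP (-0.95, FDR = 6.4e-04). It rose in GMP (0.37, FDR = 0.00991). The proximal Runx3 group, at 135152496 to 135154436, changed by -1.24 in MEP (FDR = 0.0546), a call lost without KO 301, KO 304 or KO 308 (FDR = 0.145 to 0.179). Both starts of Cbfa2t3 were called higher in GMP, the distal by 0.50 (FDR = 0.0315) and the proximal by 0.62 (FDR = 0.0303), each lost without WT 309 (FDR = 0.125 and 0.111). In MEP the distal Cbfa2t3 group was called lower (-0.32, FDR = 0.0425), a call lost without WT 300, WT 305, KO 301 or KO 308 (FDR = 0.101 to 0.168). The proximal Runx2 group was -0.31 in GMP (FDR = 0.0425), lost without KO 301, KO 304 or WT 309 (FDR = 0.142 to 0.158).

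Beside the 7 genes, 4 lists from the same pathway are read against the shares of all genes called, which were 23.4% in CMP, 33.9% in GMP, 29.4% in MEP and 0.0792% in LT-HSC, and a list near these shares is not set apart by its count. The cofactors that RUNX and ETO proteins recruit were called in both directions. Of 21, in CMP 3 were called higher and 2 lower, with a median log2 fold change of 0.02 against -0.00 over all genes. In GMP 3 were higher and 1 lower (median 0.03 against -0.01), in MEP 6 and 5 (0.03 against -0.00), and in LT-HSC none, with 1 at an unadjusted p under 0.05. These counts moved with single libraries. With 1 library left out, the 5 called in CMP became 1 (without KO 301 or WT 309) to 4, the 4 in GMP became 2 (without WT 309 or any 1 KO library) to 5, and the 11 in MEP became 7 (without KO 301) to 14. Tbl1x, a subunit of corepressor complexes, was called higher in CMP, GMP and MEP (0.18, 0.16 and 0.28), although its TPM overlapped between genotypes in GMP. Tle1, a Groucho corepressor, rose in CMP (0.28) and MEP (0.78). The deacetylase Hdac1 rose in GMP (0.35) but was called lower in MEP (-0.19, FDR = 0.0181). Among others called lower were Hdac3 in MEP (-0.30, FDR = 0.00309) and Cdk6 in CMP (-0.23, FDR = 0.0473). The TPM of Cdk6 overlapped between genotypes there.

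The 18 transcription factors that work with RUNX proteins included 2 called higher and 4 lower in CMP (median -0.07). In GMP 4 were higher and 8 lower (median -0.11), and MEP had 2 higher with 6 lower (median -0.15). Gata2, a stem cell, mast cell and basophil factor, fell in all 3, from 256 to 175 TPM in CMP (-0.69, FDR = 4.25e-04), 83.1 to 25.0 TPM in GMP (-1.70, FDR = 1.11e-05) and 63.9 to 18.1 TPM in MEP (-1.84, FDR = 2.94e-05). Gfi1, a transcriptional repressor that acts in the granulocyte lineage, fell in CMP (-0.99) and rose in GMP (0.92). Spi1, the PU.1 factor, also rose in GMP (0.60). Lmo2 rose in MEP (0.45) and Tcf4 fell in GMP (-0.84) and MEP (-0.84). In LT-HSC none of the 18 was called, with 2 at an unadjusted p under 0.05. With 1 library left out, 5 to 9 were called in CMP, 9 to 11 in GMP and 5 (without KO 301) to 9 in MEP.

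Genes known as myeloid RUNX targets were 3 lower and 0 higher of 6 tested in CMP (median -0.68), and 5 higher and 1 lower of 6 in GMP (0.55). Cathepsin G (Ctsg) fell in CMP from 623 to 142 TPM (-2.23, FDR = 3.74e-05) and the peroxidase Mpo from 2757 to 1135 TPM (-1.38, FDR = 8.37e-04). In GMP the receptor gene Csf3r rose from 112 to 176 TPM (0.81) and Csf1r, a monocyte receptor, fell from 33.2 to 19.6 TPM (-0.61). In MEP edgeR called 0 of 5 tested, with 0 at an unadjusted p under 0.05, and in LT-HSC Csf3r was the single call of 7 (-2.09, FDR = 0.0425). With 1 library left out, 2 to 4 of these targets were called in CMP, 4 to 6 in GMP, and from 0 (without KO S270) to 4 (without WT S269) in LT-HSC. Of the 8 megakaryocyte targets tested in each precursor, 3 fell in CMP and in GMP (medians 0.02 and -0.35), and in MEP 3 rose and 1 fell (0.32), although in MEP the 4 calls became 1 (without KO 308) to 6 (without WT 300). Pf4, platelet factor 4, fell in CMP from 555 to 293 TPM (-1.02), and Rab27b, of platelet granules, fell in CMP (-1.02) and GMP (-1.15). In LT-HSC none of the 9 tested was called, with 1 at an unadjusted p under 0.05. The LT-HSC medians of the 4 lists were 0.17, 0.16, 0.59 and 0.33, against -0.16 over all genes.

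Cell type markers moved with genotype in the same libraries. Their lists share genes with the RUNX target lists above, so these sums are not separate observations. Shared are Mpo, Elane and Ctsg (granulocyte), Csf1r (monocyte), and Pf4 and Itga2b (megakaryocyte). In CMP the summed granulocyte markers lay at 4197 to 4889 TPM in WT and 1747 to 2681 TPM in KO. Of these 10 genes, 7 were called lower and 1 higher. Erythroid markers in CMP lay at 901 to 1001 TPM and 1539 to 1722 TPM (10 of 11 higher). Megakaryocyte markers there lay at 752 to 1100 TPM and 585 to 599 TPM (6 of 8 lower, 2 higher). In GMP the basophil and mast cell markers, which include Gata2, lay at 847 to 1330 TPM in WT and 147 to 201 TPM in KO (6 of 6 tested lower). Granulocyte markers there lay at 30143 to 35531 TPM and 40124 to 46376 TPM (7 of 10 higher, 1 lower). In MEP the basophil and mast cell markers lay at 63.2 to 79.5 TPM and 16.4 to 22.0 TPM (4 of 5 tested lower, with Cma1 and Tpsb2 at 0 in all MEP libraries), and megakaryocyte markers at 30.3 to 51.5 TPM and 80.7 to 102.55 TPM (4 of 8 higher). Erythroid markers in MEP summed to 4808 to 5908 TPM in WT and 3761 to 4067 TPM in KO. Nonetheless 8 of these 11 genes were called higher and 1 lower. Stem cell markers lay at 55.8 to 74.6 TPM in WT and 107 to 119 TPM in KO CMP, with 3 of 8 called higher and 2 lower. In MEP they lay at 69.1 to 72.2 TPM and 116 to 128 TPM (3 of 7 tested higher). Those in GMP lay at 15.0 to 20.5 TPM and 11.7 to 12.5 TPM (1 of 8 higher, 5 lower). In CMP the monocyte markers lay at 297 to 619 TPM in WT and 133 to 179 TPM in KO (5 of 8 lower, 1 higher). Basophil and mast cell markers there lay at 357 to 551 TPM and 248 to 258 TPM (5 of 6 tested lower). Dendritic cell markers in CMP lay at 170 to 211 TPM and 289 to 369 TPM (2 of 6 tested higher). Monocyte markers in GMP lay at 1365 to 1668 TPM and 891 to 1091 TPM (6 of 8 lower, 1 higher). T and NK cell markers, of cells that also express Runx3, summed to at most 6.72 TPM in CMP, 4.30 TPM in GMP and 2.03 TPM in MEP. In LT-HSC they were higher, at 57.5 to 74.1 TPM in WT and 49.0 to 52.1 TPM in KO. The part of these shifts in the differences of Runx1, Runx3 and Cbfa2t3 was not tested.

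Genes with the most similar levels over the 18 precursor libraries were named by Pearson correlation of log2(TPM + 1) among 11298 protein-coding genes, as a description. Zeb2 (r = 0.985) and Rhobtb1 (0.984) were closest to Runx1, Cd93 (0.995) and Pik3cg (0.994) to Runx2, and Clic1 (0.986) and Sigirr (0.983) to Runx3. Ttc7b (0.997) and Etv6 (0.996) were closest to Cbfb, Vmp1 (0.944) and Lmf2 (0.939) to Cbfa2t3, Ash1l (0.967) and Cenpc1 (0.946) to Cbfa2t2, and C1galt1 (0.783) and Ptpn12 (0.780) to Runx1t1. The libraries are 3 populations from the same 6 mice and are not independent, and the search covered 1 gene more (11299) for Runx1t1.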

How the data were processed

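The authors quantified the reads of each library with kallisto on Ensembl transcripts (mm10), and the deposited files hold estimated counts (not whole numbers) and TPM per transcript. Of 115088 transcripts, 114200 (99.2%) matched the annotation used to sum both units per gene, and the rest held at most 0.363% of a library's counts.

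Summed estimated counts were rounded and tested in each population with edgeR 4.0.16 (R 4.3.3; TMM scaling, filterByExpr, quasi-likelihood test, genotype as the only term), with Benjamini-Hochberg adjustment over all genes tested and a threshold of 0.1. Contrasts between CMP, GMP and MEP came from 1 fit of the 18 libraries with a term for each mouse. Promoter groups joined transcripts of a gene whose annotated starts lay within 1000 bp, and their usage was tested with edgeR's diffSpliceDGE. Shares in single libraries were compared by exact permutation tests (scipy 1.17.1). Alternatives used DESeq2 1.42.0, limma 3.58.1 on log2(TPM + 1), median-of-ratios scaling, no count filter, a transcript length offset, other groupings of starts, a replicate block and leaving out each library. The scripts were tested on simulated data.

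Over genes above 1 TPM in deposited values, standard errors of the log2 fold changes had medians of 0.389 for LT-HSC but 0.090, 0.088 and 0.082 for CMP, GMP and MEP. TMM set the median difference near 0 in the precursors, whereas TPM alone gave KO over WT medians of 0.10 (CMP), -0.12 (GMP) and 0.02 (MEP) on the log2 scale.

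Named were the 7 genes, Runx1 promoter groups and transcripts with at least 5% of the gene's TPM, Arid1a, the 2 protein-coding genes of highest correlation with each member, and from each pathway list up to 2 called genes of smallest p in each direction and population. Other genes of these lists that appear here were named under the same rule in another population, except Elane, named as a marker shared between lists. A gene that this rule names is not reported here. The members and lists were chosen with earlier results of these data known. RefSeq promoter windows of GRCm38.p6 gave the sequences.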

Additional observations from a re-analysis of the deposited data

Results flagged for a closer look

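The KO effect on 3 of the 7 genes differed between populations in the edgeR test of the difference itself. For Runx1 the log2 effect in MEP less that in CMP was 0.68, and that in GMP less that in MEP was -0.76, where Runx1 was called lower in CMP and GMP and was not called in MEP. For Runx3 the corresponding values were -1.25 and 1.32, with a rise in CMP and GMP and a fall in MEP. For Cbfa2t3 they were -0.47 and 0.77, and of its own effects the one in CMP passed the threshold in 12 of 14 alternatives and the one in MEP in 6 of 14.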

How the results depend on the processing

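No called result changed sign, while some uncalled values did, among them the Runx1 start values below. The calls of Runx1 and Runx3 in GMP, Runx1 in CMP and Runx3 in MEP held in 14 of 14 alternatives. Genes called in LT-HSC, 18 in the reported analysis, were 286 without the count filter, 115 with neighbouring sample numbers as a replicate block, 266 with DESeq2, 263 with DESeq2 and a length offset, 1 with limma, and 50 to 2516 with 1 library left out (562 without WT S245). Its members called were 0 to 1 with 1 library left out. Members called in CMP, 5 in the reported analysis, were 3 with limma, 3 in 1 fit of the 18 libraries and 3 to 5 with 1 library left out. In MEP, 2 became 1 with the length offset, with DESeq2 and that offset, with limma and in 1 fit, and 1 to 2 with 1 library left out. The 0 members whose effect differed between GMP and CMP became 1 with median-of-ratios scaling, no filter or the length offset, and 0 to 1 with 1 mouse left out. The 5 between GMP and CMP in WT became 3 with the length offset. Genes called in MEP ran from 3040 (without KO 301) to 5357 with 1 library left out, and genes whose effect differed between MEP and CMP from 1464 (without mouse 309) to 2638.

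For Runx1 starts, the distal level in LT-HSC was -0.11 with protein-coding transcripts only and -0.27 to 0.39 with 1 library left out, and proximal usage there was -0.44 to 0.65. In CMP, leaving out 1 library gave -0.80 to -0.55 for the proximal level, -3.53 to -2.03 for the downstream level (FDR = 0.0883 without KO 304) and -0.17 to 0.026 for proximal usage. The downstream level ran from -0.59 to 0.23 in GMP and from -2.00 to -1.05 in MEP (-1.75, FDR = 0.0995, without WT 309). With starts joined only within 100 bp, the KO less WT distal share was -1.39 percentage points in CMP and 2.78 in GMP. Groupings within 2000 bp and without incomplete transcripts were chosen after seeing the data.

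The labels do not say that neighbouring sample numbers pair WT and KO mice. Their deviations correlated at 0.310 to 0.504 in CMP and GMP and at -0.024, 0.451 and 0.340 in MEP. In MEP the pair 300 and 308, which is not neighbouring, reached 0.282. In LT-HSC, with 2 libraries of each genotype, both pairs must give the same value (0.310). The replicate block therefore stayed an alternative. With it Cbfb passed the threshold in CMP (-0.18, FDR = 0.0586), as did the Cbfa2t3 starts and the proximal Runx2 start there, and it changed no other call of a member or its starts. Without the mouse term (no replicate block), 7915 genes and 5 members were called between GMP and CMP in WT. Depth limits Runx1t1 in the precursors, at 38 estimated counts or fewer.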
